A study of Mus musculus with 18 samples.

Results

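Accessible regions that were listed in all 4 groups of mouse skeletal muscle cells, but with unequal strength in MyoD-null and wild-type myoblasts, are described here. Peaks of the 4 deposited ATAC-seq lists on chromosomes 1 to 19 were merged where they overlapped by 1 bp or more, and merged regions under 2000 bp with a peak of every list were kept. The highest fold enrichment of each list was taken at each region. A region was a member if its wild-type over MyoD-null ratio of myoblast folds was 1.5 or more, or was at most the inverse of 1.5, rounded to 3 decimals. Of 63011 shared regions, 321 (0.509%) were members, and the series held 139354 merged regions on these chromosomes in all. There were 185 members with the higher fold in MyoD-null myoblasts, or 0.294% of shared regions, and 136 with the lower fold, or 0.216%. The myoblast folds chose the members and are therefore a description with no test.

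The groups were MyoD-null myoblasts, wild-type myoblasts, and MyoD-null and wild-type myocytes after 24 h of myogenic differentiation, each with 3 ATAC-seq samples from skeletal muscle. The labels call the null genotype a MyoD knockout in mice. The sources used here do not give how the allele was made, the age of the animals or any pooling. The labelled cell types were not checked against marker genes, because no gene annotation of the lists' build (mm9) was used. The 6 RNA-seq samples of the series were not analysed here.

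MyoD is a basic helix-loop-helix transcription factor that binds E-box sequences, can bind sites in closed chromatin and directs cells into the skeletal muscle lineage. Myf5, a related factor, is also expressed in proliferating myoblasts, and MyoD-null myoblasts are known to differentiate poorly in culture. In ATAC-seq a transposase inserts adapters into open DNA. The fold enrichment of a peak is the number of reads covering its summit plus 1, over the local background plus 1, as given by the authors. In cells profiled in bulk, a weaker peak from fewer cells with an open site and one from less opening in every cell cannot be told apart.

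Each group had 1 list, called on merged replicates, so no value below carries an error between replicates and no test between groups was possible. Reads at the summit were recovered from the deposited fold and p-value of every peak. The genome-wide background was 8.54 reads in MyoD-null and 8.18 in wild-type myoblasts, and 6.34 and 5.29 in the myocytes deposited as MyoD-null and as wild type. The peak names in the myocyte lists carry the opposite genotypes: the list deposited as MyoD-null holds peaks named WT-DM, and the list deposited as wild type holds peaks named MKO-DM (MKO marks the MyoD-null samples). Both myoblast lists have names that match their labels. Myocyte ratios are given as deposited, MyoD-null over wild type, and read by the peak names each is its inverse.

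At most shared regions the myoblast genotypes had nearly equal folds. Across all 63011 shared regions the median ratio of folds, MyoD-null over wild type, was 1.01, with quartiles of 0.931 and 1.09. Medians of the folds themselves were 4.40 in MyoD-null and 4.36 in wild-type myoblasts. Among the 185 members that were higher in MyoD-null myoblasts, the median fold was 5.03 in MyoD-null and 3.11 in wild-type myoblasts, and the ratio ran from 1.5 to 1.99 with a median of 1.56. Among the 136 that were lower, the median fold was 3.14 in MyoD-null and 4.90 in wild-type myoblasts, with ratios from 0.416 to 0.666 and a median of 0.636. No member was stronger in MyoD-null myoblasts by 2-fold or more, and 5 were weaker by that much.

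**Figure D1:**
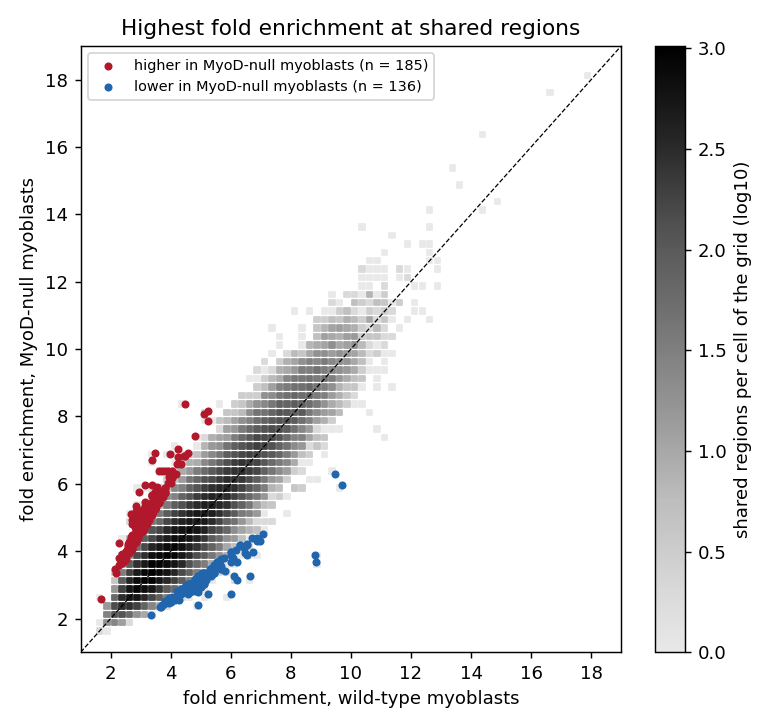
Fold enrichment at each shared region in MyoD-null myoblasts (vertical axis) against wild-type myoblasts (horizontal axis). Grey squares count shared regions on a grid, the dashed line marks equal folds, and coloured points are the 185 members higher and the 136 lower in MyoD-null myoblasts, which lie along both edges of the cloud at low to moderate folds.

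The regions with the highest MyoD-null over wild-type ratios outside chromosome 18, whose regions were counted but are not named, were spread over 6 chromosomes. The first, at chromosome 5, 75299696 to 75300202 (mm9), had folds of 6.92 in MyoD-null and 3.49 in wild-type myoblasts, with 65 and 31 reads at the summits. In the myocytes its fold was 4.50 in the list deposited as MyoD-null and 9.75 in the one deposited as wild type. The difference between myocyte lists thus ran opposite to the difference between myoblasts as deposited, and the same way by the peak names. A region at chromosome 1, 128566880 to 128567648, was the strongest member of this direction, with folds of 8.38 in MyoD-null and 4.47 in wild-type myoblasts. Its myocyte folds were 3.68 (deposited as MyoD-null) and 11.0 (deposited as wild type). Here the 2 lists with the higher folds were the MyoD-null myoblasts and the myocytes whose peak names read MKO-DM.

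Regions at chromosome 15, 8271288 to 8271999, and chromosome 12, 32479985 to 32480443, had the same arrangement. On chromosome 15 the folds were 5.97 in MyoD-null and 3.16 in wild-type myoblasts, and 4.50 and 11.4 in the myocytes deposited as MyoD-null and as wild type. On chromosome 12 they were 5.34 and 2.83 in the myoblasts, and 4.63 and 11.0 in the myocytes, in the same order of genotypes. Smaller myocyte differences of that kind were seen at chromosome 4, 135666390 to 135666919, and chromosome 11, 19637225 to 19637957. The chromosome 4 region had folds of 5.76 in MyoD-null and 2.96 in wild-type myoblasts, with 5.20 and 8.88 in the myocytes. That on chromosome 11 had 5.19 and 2.85 in the myoblasts and 5.72 and 7.45 in the myocytes. The remaining regions among the first 8 were both on chromosome 4. At 144601000 to 144601639 the folds were 5.10 in MyoD-null and 2.68 in wild-type myoblasts, and 5.88 and 4.28 in the myocytes, higher in the list deposited as MyoD-null. At 137573923 to 137574278 they were 4.26 and 2.28 in the myoblasts and 3.17 and 3.49 in the myocytes.

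The lowest ratio was at chromosome 17, 22362070 to 22362965, with folds of 3.67 in MyoD-null and 8.82 in wild-type myoblasts and 34 and 80 reads at the summits. In the myocytes it reached 10.5 in the list deposited as MyoD-null and 9.07 in the one deposited as wild type. It was therefore weak in MyoD-null myoblasts alone among the 4 lists. At chromosome 6, 118681810 to 118682531, the folds were 3.88 in MyoD-null and 8.81 in wild-type myoblasts, and 10.8 and 4.30 in the myocytes deposited as MyoD-null and as wild type. The 2 lists with the lower folds were the MyoD-null myoblasts and the myocytes named MKO-DM.

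Chromosome 13 held a pair of regions with the higher myocyte fold in the list deposited as MyoD-null. At 101364001 to 101364540 the folds were 3.14 in MyoD-null and 6.21 in wild-type myoblasts, and 11.6 and 6.84 in the myocytes. At 85558307 to 85558975 they were 2.41 and 4.90 in the myoblasts, and 7.09 and 3.91 in the myocytes. At chromosome 4, 76814706 to 76815248, as at chromosome 16, 45644483 to 45644927, the regions also had the higher myocyte fold in the list deposited as MyoD-null. The chromosome 4 region had folds of 3.25 and 6.64 in MyoD-null and wild-type myoblasts, and 7.36 and 5.25 in the myocytes. On chromosome 16 they were 3.25 and 6.10 in the myoblasts, and 7.91 and 4.80 in the myocytes. The other regions among the first 8 had no such difference. At chromosome 9, 121062182 to 121062778, folds of 2.72 in MyoD-null and 5.23 in wild-type myoblasts stood beside 9.86 and 9.56 in the myocytes. At chromosome 8, 71499562 to 71500249, folds were 2.72 and 5.99 in the myoblasts, and 5.45 and 8.15 in the myocytes, so that only here the myocytes as deposited showed the direction of the myoblasts among these 8.

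**Figure D2:**
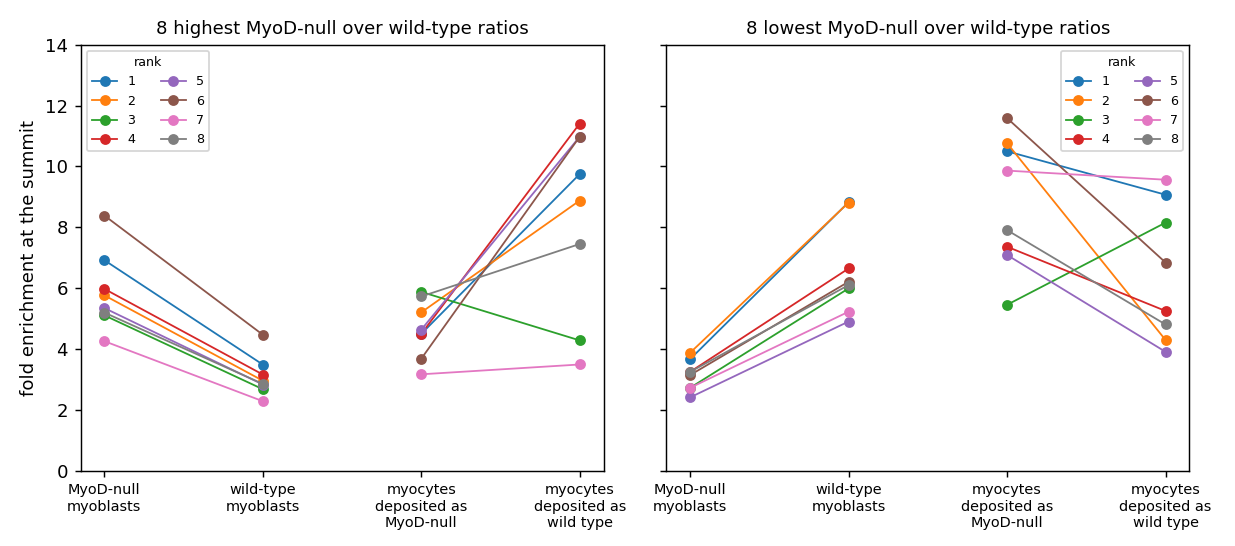
Fold enrichment (vertical axis) in each of the 4 lists at the 8 regions with the highest and the 8 with the lowest MyoD-null over wild-type ratio in myoblasts, chromosome 18 left out. Lines join the 2 genotypes of a stage as deposited. In myocytes 7 of the first 8 were lower and 7 of the second 8 were higher in the list deposited as MyoD-null. Of all shared regions, 69.8% were lower and 30.2% higher there. These counts of 7 include near-equal folds, with myocyte ratios of 0.908 at chromosome 4 from 137573923 and 1.03 at chromosome 9 from 121062182.

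Read depth set how firmly these differences stand. The ratio of summit reads, each scaled by the genome-wide background of its list, was given an exact binomial 95% interval, which covers counting error only. The interval lay above 1 at 7 of the 8 highest regions and below 1 at all 8 of the lowest. The exception was chromosome 4, 137573923 to 137574278, with a read ratio of 1.55 (0.957 to 2.56). The intervals farthest from 1 were 1.29 to 3.19 at the chromosome 5 region and 1.28 to 2.84 at the chromosome 1 region, and then 1.21 to 3.22 on chromosome 11 and 1.2 to 3.13 on chromosome 15. In the other direction they were 0.267 to 0.606 at the chromosome 6 region, 0.264 to 0.615 on chromosome 17, 0.264 to 0.725 on chromosome 8 and 0.298 to 0.754 on chromosome 4. These regions had been picked for their ratios, so the intervals describe the depth behind each value and test nothing. For myocyte reads, as deposited, the interval lay below 1 at 4 of the 8 highest regions and above 1 at 0. At the 8 lowest it lay above 1 at 3 and below 1 at 1.

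Fewer than 1 in 2 members had such an interval clear of 1: it lay above 1 at 86 of the 185 higher members (46.5%) and below 1 at 65 of the 136 lower ones (47.8%). Over all shared regions it lay above 1 at 190 and below 1 at 137, or 0.302% and 0.217%. The summit reads are part of the folds that chose the members. Their shares were therefore bound to exceed those of all shared regions, and they test nothing. The spread of the read ratio was also set against counting error at every shared region, as the SD of the log ratio around its median over the SD that the reads alone would give. It was 0.699 between the myoblast lists and 1.70 between the myocyte lists, and 0.681% and 21.1% of shared regions lay outside the 95% range that counting alone would give around the median. The myoblast lists, members included, thus differed overall by less than independent counts of these sizes would. The cause was not tested.

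Members were shallow regions. The reads at both myoblast summits summed to a median of 81 for the higher and 78.5 for the lower members, against 113 for all shared regions. Shared regions were divided by these summed reads into 4 classes of nearly equal size. The class with the fewest reads (46 to 85) held 113 higher and 95 lower members. The next class (86 to 113) held 60 and 35, the third (114 to 165) held 11 and 6, and the class with the most reads held 1 and 0. The part of depth in the choice of members was not tested.

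**Figure D3:**
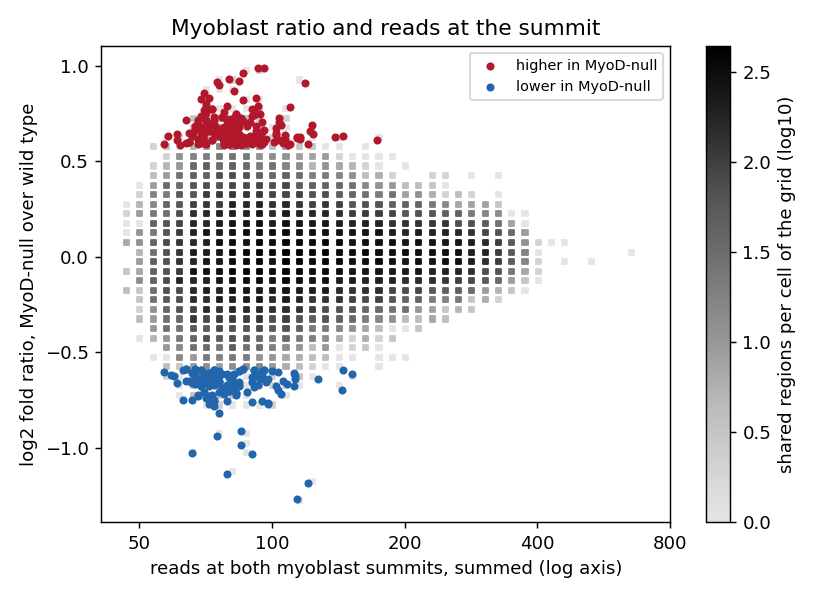
Log2 ratio of folds in myoblasts, MyoD-null over wild type (vertical axis), against the reads at both myoblast summits, summed (horizontal log axis). Grey squares count shared regions on a grid and coloured points are the members, of which 303 of 321 lie in the 2 read classes with the fewest reads (46 to 113).

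At the limits of the rule, members and other regions were alike. The 3 higher members nearest the limit had ratios of 1.5, at chromosome 12, 80886323 to 80887123 (folds of 5.72 in MyoD-null and 3.81 in wild-type myoblasts), chromosome 4, 85664804 to 85665199 (4.06 and 2.71), and chromosome 5, 64158706 to 64159857 (4.80 and 3.20). Just outside lay regions from chromosome 11, 99520372 (5.88 and 3.92), chromosome 15, 63944888 (4.29 and 2.86), and chromosome 13, 99980829 (4.40 and 2.94). On the other side, the lower members nearest the limit lay at chromosome 1, 78605848 to 78606468, and chromosome 11, 30179329 to 30179672, both with folds of 2.83 in MyoD-null and 4.25 in wild-type myoblasts, and at chromosome 4, 148809831 to 148810443 (3.77 and 5.66). Regions from chromosome 2, 158420822 (3.53 and 5.30), chromosome 15, 11454109, and chromosome 1, 147191452 (both 4.51 and 6.75), fell just outside.

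The strongest members of the lower direction lay close together. The 3 with the highest wild-type fold were all on chromosome 17 between 22362070 and 22954989. Besides the region from 22362070, these were 22451304 to 22452229, with folds of 5.97 in MyoD-null and 9.70 in wild-type myoblasts, and 22954296 to 22954989, with 6.29 and 9.48. This stretch held 7 shared regions, and 3 of them were members, all lower in MyoD-null myoblasts. The other 4 had ratios up to 1.34, and the median over all 7 was 0.805. In myocytes, the regions from 22451304 and 22954296 had folds of 12.4 and 10.2 in the list deposited as MyoD-null and 13.0 and 13.3 in the one deposited as wild type. The stretch was picked after its values were seen. The strongest higher members after that on chromosome 1 were both on chromosome 14. At 37340380 to 37340965 the folds were 8.17 in MyoD-null and 5.23 in wild-type myoblasts, and at 69572432 to 69573593 they were 8.07 and 5.12.

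The weakest members had the higher of their 2 myoblast folds between 2.57 and 3.66. The weakest higher member, at chromosome 14, 26279753 to 26281147, had folds of 2.57 in MyoD-null and 1.68 in wild-type myoblasts with 107 and 66 reads. Those at chromosome 10, 69890916 to 69891699, and chromosome 2, 5996180 to 5996609, had folds of 3.35 and 3.47 in MyoD-null and of 2.16 and 2.15 in wild-type myoblasts. Of the lower members, chromosome 16, 17235411 to 17235999, was weakest, with 2.10 in MyoD-null and 3.34 in wild-type myoblasts. It was followed by chromosome 4, 125322305 to 125322925 (2.35 and 3.65), and chromosome 4, 131075118 to 131075682 (2.39 and 3.66).

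The setting of the members is described here with no claim of independence from their choice, since the rule limited the width and the background is part of the fold. They were narrower, with median widths of 550 bp (higher) and 622 bp (lower) against 728 bp for all shared regions. The background at their summits was more often the genome-wide one in both myoblast lists, at 84 of 185 higher members (45.4%) and 76 of 136 lower members (55.9%), against 16.9% of all shared regions. The distance to the nearest other merged region had a median of 3942 bp for higher and 4628 bp for lower members, against 3002 bp. A single peak in every list was found at 177 of 185 and 130 of 136 members (95.7% and 95.6%), against 92.1%. Summits of the 2 myoblast lists lay a median of 47 bp apart at higher and 43 bp at lower members, against 36 bp. They were within 150 bp at 169 of 185 and 125 of 136 members (91.4% and 91.9%), against 92.0% of all shared regions. The largest distances were 769 and 836 bp. At most members, but not all, the folds compared thus came from nearly the same place. The link of these settings with the reads at the summit, and their part in the choice of members, were not tested.

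Members were scattered over the genome. Their share of the shared regions ran from 0.154% on chromosome 19 (3 of 1950, all of the lower direction; 95% Wilson interval 0.0523 to 0.451) to 0.777% on chromosome 4 (32 of 4119; 0.551 to 1.1). The median myoblast ratio of all shared regions was between 1.0 and 1.02 on every one of the 19 chromosomes. Within a direction, 175 of the 185 higher members and 128 of the 136 lower members had no other member of their direction within 100 kb. The rest formed 5 pairs and 4 pairs.

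The closest pairs of higher members were on chromosomes 4, 13 and 1. On chromosome 4 the regions from 137572911 and 137573923 lay within 1368 bp, with ratios of 1.61 and 1.86. On chromosome 13, regions from 10353997 (1.52) and 10358738 (1.61) were within 6560 bp, and on chromosome 1, regions from 121989947 (1.54) and 121995996 (1.63) within 6563 bp. Among lower members the closest pairs were at chromosome 2, from 14028027 and 14029368 (0.642 and 0.612), chromosome 9, from 121016230 and 121062182 (0.593 and 0.521), and chromosome 11, from 17911087 and 17970605 (0.641 and 0.635). By the reads alone, 4 of these 6 higher members fell under the limit of 1.5: the read ratio was 1.38 at 137572911 on chromosome 4, 1.37 and 1.44 at 10353997 and 10358738 on chromosome 13, and 1.41 at 121989947 on chromosome 1. In myocytes the regions of the chromosome 2 pair differed in opposite directions, with ratios of 1.34 and 0.639 as deposited, and those of the chromosome 9 pair had 0.877 and 1.03. Both regions of the chromosome 11 pair had their higher folds in the list deposited as MyoD-null, 8.59 and 7.19, against 6.20 and 5.25 in the one deposited as wild type.

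The myocyte folds had no part in the direction of the members. Over all shared regions the median myocyte ratio, deposited as MyoD-null over deposited as wild type, was 0.897, with quartiles of 0.767 and 1.04. At members higher in MyoD-null myoblasts the median myocyte folds were 4.36 (deposited as MyoD-null) and 5.47 (deposited as wild type). Their median ratio was 0.788, with an order-statistic 95% interval of 0.743 to 0.851 that covers the sampling of regions only. At members lower in MyoD-null myoblasts the median folds were 4.91 and 5.88 and the median ratio was 0.881 (0.836 to 0.927). As deposited, then, the higher members lay below the median of all shared regions in 119 of 185 cases, and the lower members in 70 of 136. A myocyte ratio below 1 was found at 133 of the 185 higher members (71.9%) and at 91 of the 136 lower members (66.9%), against 69.8% of all shared regions, so that most members of either direction were on the same side of 1 as most shared regions. Members were also set against regions of like myoblast depth. Myocyte depth was not matched: the reads at both myocyte summits summed to medians of 80 for higher and 78.5 for lower members, against 117. In the class with the fewest myoblast reads the median myocyte ratio was 0.788 for higher and 0.888 for lower members, against 0.828 for all shared regions. In the next class it was 0.795 and 0.859, against 0.856. The third class, with only 11 higher and 6 lower members, had 0.717 and 0.985, against 0.913. In these classes the medians of the lower members were thus at or above those of shared regions, and those of the higher members below them. With genotypes read from the peak names the medians were 1.27 and 1.14, against 1.12 for all shared regions.

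**Figure D4:**
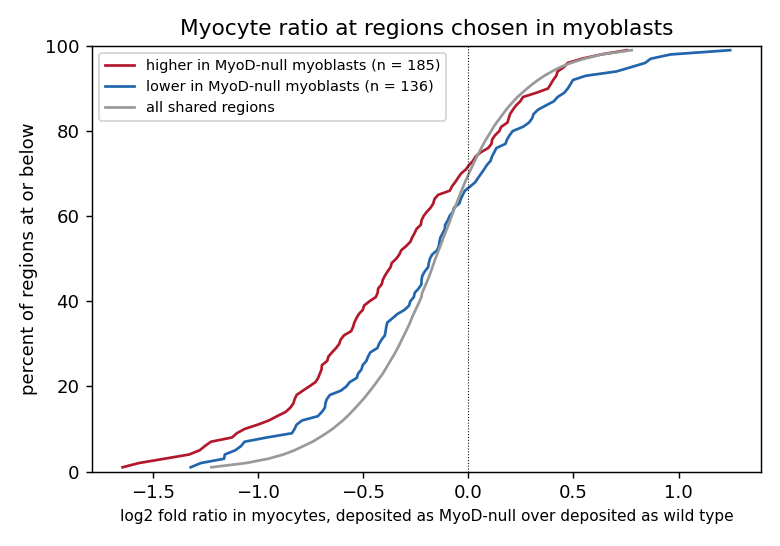
Percent of regions at or below each log2 ratio of myocyte folds, deposited as MyoD-null over deposited as wild type (horizontal axis), from the 1st to the 99th percentile. The curve of the 185 members higher in MyoD-null myoblasts lies left of that of all shared regions over most of its range (medians of 0.788 and 0.897 as ratios). The curve of the 136 lower members (median 0.881) crosses that of all shared regions near percentile 63.

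Large myocyte differences were also counted by the limits used for myoblasts. Of the higher members, 5 of 185 (2.70%) were higher and 60 (32.4%) were lower in the list of myocytes labelled MyoD-null, against 2.56% and 12.6% of all shared regions. Of the lower members, 9 of 136 (6.62%) were higher and 27 (19.9%) were lower in those myocytes, against the same 2.56% and 12.6%. Shallow regions had more such differences in general. In the class of shared regions with the fewest myoblast reads, 3.35% were higher and 24.1% lower in the list deposited as MyoD-null. The 113 higher members of that class had 2.65% and 30.1%, and its 95 lower members 5.26% and 22.1%. In the next class the shares were 3.46% and 18.1% for shared regions, 3.33% and 36.7% for the 60 higher members, and 8.57% and 17.1% for the 35 lower members. The part of depth in these shares was not tested beyond this split.

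The myocyte ratio was followed over the whole range of the myoblast ratio. Depth changed along this range. The summed myoblast reads had a median of 131 at ratios between 1 and 1.1, 80.5 at 1.6 or more, and 79 at the lowest ratios. The part of depth in the medians below was not tested. At the 64 members with a myoblast ratio of 1.6 or more, the median myocyte ratio as deposited was 0.758 (0.664 to 0.851), and at the 121 other higher members it was 0.804 (0.743 to 0.888). At the 19001 regions with a myoblast ratio between 1 and 1.1 it was 0.907. It was 0.866 at the 4879 regions just under the upper limit (myoblast ratio of 1.2 or more) and 0.857 at the 2334 just over the lower one (under 0.8). At the 115 lower members with a ratio over 0.6 it was 0.879 (0.824 to 0.939), and at the 21 with the lowest ratios 0.912 (0.752 to 1.49). The 8 named regions at either end stood farther out, with median myocyte ratios of 0.524 (0.335 to 1.37, lowest and highest) for the highest and 1.52 (0.669 to 2.51) for the lowest myoblast ratios. They were picked by the myoblast ratio, and 8 regions are too few to place the median of such regions closely.

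**Figure D5:**
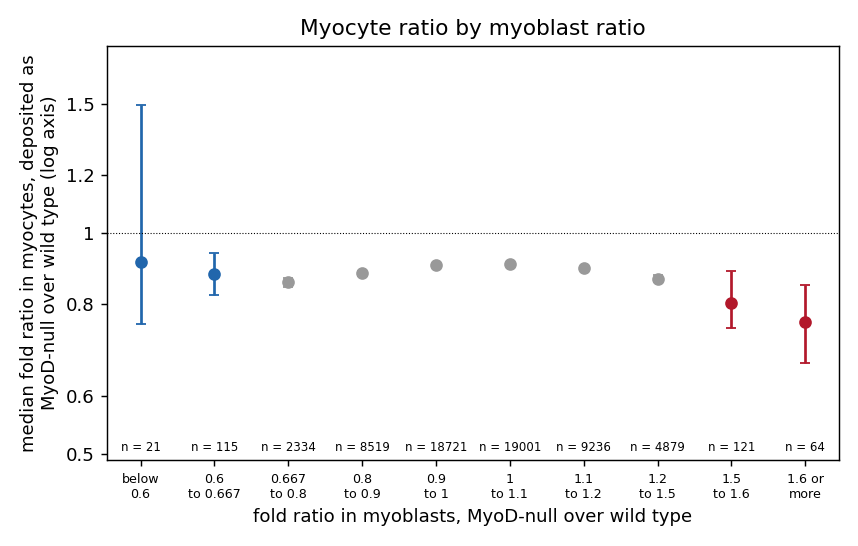
Median myocyte fold ratio, deposited as MyoD-null over deposited as wild type (vertical log axis), by the myoblast ratio of MyoD-null over wild type (horizontal axis). Bars are order-statistic 95% intervals of the median and n is the number of regions. Blue marks lower and red higher members, and the dotted line is a ratio of 1. The lowest median, 0.758, is at the myoblast ratios of 1.6 or more, where summed myoblast reads were also fewer than at ratios near 1.

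Individual members spanned both arrangements in myocytes. Those with the largest myocyte ratio among higher members, and so the same direction as deposited in both stages, were on chromosomes 9 and 1. At chromosome 9, 24145658 to 24146304, folds were 6.39 in MyoD-null and 4.03 in wild-type myoblasts, and 9.40 and 4.93 in the myocytes deposited as MyoD-null and as wild type. At chromosome 9, 86407325 to 86407781, they were 5.87 and 3.81 in the myoblasts, and 7.50 and 4.30 in the myocytes. The chromosome 1 region, 182965140 to 182965926, had 4.72 and 2.80 in the myoblasts, and 6.13 and 3.66 in the myocytes. At these 3 regions the list deposited as MyoD-null had the higher fold in either stage. In myoblasts the read interval lay above 1 at 24145658 (1.04 to 2.48). It spanned 1 at 86407325 (0.992 to 2.45) and 182965140 (0.945 to 2.62). In myocytes it lay above 1 at 24145658 (1.21 to 3.01) and 86407325 (1.07 to 2.88), and spanned 1 at 182965140 (0.979 to 2.92).

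The largest myocyte differences in the opposite direction were larger than these. At chromosome 7, 36962765 to 36963558, folds of 4.30 in MyoD-null and 2.83 in wild-type myoblasts stood beside 3.13 and 12.6 in the myocytes deposited as MyoD-null and as wild type. At chromosome 5, 105730347 to 105731020, they were 5.03 and 2.94 in the myoblasts, and 2.73 and 11.0 in the myocytes. Their myocyte ratios were both 0.249. The 95% intervals of the scaled myocyte read ratio ran from 0.100 to 0.265 on chromosome 7 and from 0.0925 to 0.263 on chromosome 5. In myoblasts the read interval spanned 1 on chromosome 7 (0.907 to 2.64) and lay above 1 on chromosome 5 (1.05 to 2.91). The chromosome 1 region from 128566880 came next, with 0.335.

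Among the lower members, 3 with the same direction as deposited in both stages stood out. Chromosome 6, 127496624 to 127497244, had folds of 3.46 in MyoD-null and 5.66 in wild-type myoblasts, and 3.27 and 8.82 in the myocytes. Chromosome 4, 149712992 to 149713511, had 2.93 and 4.47 in the myoblasts, and 3.95 and 9.91 in the myocytes. Chromosome 3, 40019139 to 40019775, had 3.04 and 5.01 in the myoblasts, and 3.27 and 8.13 in the myocytes. Their myocyte ratios were 0.371, 0.399 and 0.402. The myoblast read interval lay below 1 at 127496624 (0.374 to 0.953) and 40019139 (0.358 to 0.976). It spanned 1 at 149712992 (0.381 to 1.08). In the opposite direction, chromosome 1, 58430971 to 58431436, had folds of 3.14 in MyoD-null and 5.01 in wild-type myoblasts. Its myocyte folds were 7.91 and 3.02, a ratio of 2.62. After the chromosome 6 region from 118681810 (2.51) came chromosome 3, 84254442 to 84255104. This region had 3.94 and 6.47 in the myoblasts, and 7.83 and 3.66 in the myocytes (2.14). The myoblast read interval spanned 1 at 58430971 (0.373 to 1.01) and lay below 1 at 84254442 (0.404 to 0.922).

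Folds of myocytes were also set against those of myoblasts within a genotype. The myoblast folds that chose the members are the lower part of these ratios, which are therefore a description. Myocytes deposited as MyoD-null had a median of 0.906 times the MyoD-null myoblast fold at higher members and 1.59 times at lower members, against 1.13 times at all shared regions. Myocytes deposited as wild type had 1.79 times the wild-type myoblast fold at higher and 1.1 times at lower members, against 1.27 times. With genotypes read from the peak names the medians for MyoD-null cells were 1.14 and 1.76 times (1.26 at all shared regions). Those for wild-type cells were 1.42 and 0.997 times (1.14 at all shared regions). The peak names of the myoblast and myocyte lists also differ in form. Whether the stages were processed differently is not known here. If they were, stage and processing could not be told apart.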

How the data were processed

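ATAC-seq peak lists of 4 groups were used, 1 list per group of 3 samples. Per the submitters' processing notes the build was mm9 and the tools included MACS2 and deepTools, without versions. The aligner, the caller's settings and any shift of reads for the transposase: not given in the sources used here. Peak names carry the word merge, so each list was read as called by the authors on merged replicates. The deposited fold enrichment is a ratio of summit reads plus 1 to local background plus 1. The −log10 values of p and q were deposited by the authors as the caller wrote them, with no q value under 2.02 on that scale. The summit offset was used for distances.

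The whole-number reads and the local background that give both the fold and the −log10 p were solved for every peak, and gave back all −log10 p values to within 0.001. They may be fragments, since the caller's mode is not given. PCR copies cannot be told from separate molecules. Intervals of read ratios are exact (Clopper-Pearson) binomial 95% intervals scaled by the genome-wide backgrounds. The members and lists were chosen with earlier results of these data known. The named regions, chromosome 18 left out, were in each direction the 8 most extreme myoblast ratios, 3 on either side of the limit, the 4 read intervals farthest from 1, the 3 most extreme myocyte ratios each way, the 3 highest and 3 lowest folds, and 3 runs of members (those of equal size by shortest span). No filter on repeats or on regions of artefact signal was applied. Replicate samples could not be compared, because the lists hold merged reads. Motifs, sequences and nearby genes were not analysed, since no mm9 genome or annotation was used here.

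Merging was checked against bedtools 2.31.1, and the merge, the rule and the recovery of reads were tested on 20000 simulated sites, where all 4 known quantities were recovered within 1 percent. Figures were drawn with matplotlib 3.10.9, and values were computed with scipy 1.17.1, statsmodels 0.14.6, pandas 2.3.3 and numpy 2.4.6 under Python 3.11.15. Coordinates are mm9 and count from 1.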

Additional observations from a re-analysis of the deposited data

Results flagged for a closer look

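Results are given here where myoblasts and myocytes, as deposited, differed in opposite directions between the genotypes. With 1 list a group the difference between the stages was not tested, and by the peak names of the myocyte lists the same results have 1 direction in both stages. The median myocyte ratio of folds, deposited as MyoD-null over deposited as wild type, was 0.788 at the 185 members higher in MyoD-null myoblasts. It was also below 1 over all shared regions, at 0.897, over those with the fewest myoblast reads, at 0.828, and at the 136 lower members, at 0.881.

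Of the 26 named higher members, 18 had a myocyte ratio below 1, a share near that of all 185 higher members (133, or 71.9%) and of all shared regions (69.8%). The ratio was 0.249 at both chromosome 7 from 36962765 and chromosome 5 from 105730347, 0.335 at chromosome 1 from 128566880, 0.394 at chromosome 15 from 8271288, and 0.422 at chromosome 12 from 32479985. It was 0.451 at chromosome 4 from 137572911, 0.461 at chromosome 5 from 75299696, 0.586 at chromosome 4 from 135666390, 0.629 at chromosome 2 from 5996180, and 0.640 at chromosome 14 from 37340380. Values of 0.651 at chromosome 1 from 121989947, 0.664 and 0.737 at chromosome 13 from 10358738 and 10353997, 0.768 at chromosome 11 from 19637225, and 0.776 at chromosome 10 from 69890916 followed. Nearest to 1 were 0.857 at chromosome 5 from 64158706, 0.876 at chromosome 12 from 80886323 and 0.908 at chromosome 4 from 137573923. The interval of the scaled read ratio spanned 1 at 64158706 (0.433 to 1.61) and 137573923 (0.516 to 1.28). It lay below 1 at 80886323 (0.394 to 0.832).

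Of the 26 named lower members, 16 had a myocyte ratio above 1. Some of the 26 were picked by that ratio, and of all 136 lower members 45 (33.1%) were above 1, near the 30.2% of all shared regions. The ratio was 2.62 at chromosome 1 from 58430971, 2.51 at chromosome 6 from 118681810, 2.14 at chromosome 3 from 84254442, 1.81 and 1.69 at chromosome 13 from 85558307 and 101364001, and 1.65 at chromosome 16 from 45644483. It was 1.40 at both chromosome 4 from 76814706 and chromosome 4 from 125322305, 1.38 and 1.37 at chromosome 11 from 17911087 and 17970605, 1.34 at chromosome 2 from 14028027, and 1.23 at chromosome 11 from 30179329. The lowest were 1.2 at chromosome 16 from 17235411, 1.16 at chromosome 17 from 22362070, 1.04 at chromosome 4 from 148809831 and 1.03 at chromosome 9 from 121062182. At 148809831 the scaled read ratio was 0.909 (0.622 to 1.33), on the other side of 1. The read intervals also spanned 1 at 17235411 (0.770 to 1.73), 22362070 (0.927 to 1.87) and 121062182 (0.829 to 1.65).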

How the results depend on the processing

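No paired analysis was possible because each group had 1 list called on merged replicates, and no replicate could be left out for the same reason. With limits of 2 and 0.5 there were 0 higher and 5 lower members, and the lower ones had a median myocyte ratio of 1.40 as deposited, the opposite side of 1 to the main 0.881. From reads over background in place of folds there were 291 higher and 213 lower members, and the higher ones had a median myocyte ratio of 0.728. A −log10 q of at least 5 in every list left 110 higher members. A fold of at least 5 in a myoblast list left 93 higher and 67 lower members, and a median of 0.737 for the higher ones. Dividing myocyte ratios by the median of all shared regions gave 0.879 for higher and 0.982 for lower members. With genotypes from the peak names the medians were 1.27 and 1.14, on the other side of 1.

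Settings added after seeing the data were the peak names with the same division, which gave 1.14 and 1.02, again on the other side of 1. A read interval clear of 1 left 86 higher and 65 lower members, and the genome-wide background in both myoblast lists left 84 and 76, with a median of 0.709 for the higher ones. The cause of these changes was not tested, apart from fewer regions kept by stricter settings. Dividing the myoblast ratio by its median gave 156 higher and 162 lower members, so the excess of higher members turned round. Limits on summit distance, on the number of peaks and on width left the counts within 1.5 times of the main ones. All 52 named members kept their direction when reads replaced folds, but 5 of the 26 higher and 0 of the 26 lower ones no longer met the limits. Of all members, 29 of 185 higher and 15 of 136 lower ones no longer met them.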

Other observations

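Shared regions outside the rule were counted by the same limits. On the X chromosome, 5 of 1142 shared regions were higher and 8 lower in MyoD-null myoblasts, or 1.14% in all, against 0.509% on the autosomes. The median myoblast ratio there was 1.03, and the median myocyte ratio as deposited was 0.898. The part of depth in the X chromosome share was not tested. On the Y chromosome 1 of 10 shared regions was higher and 0 were lower. Of 1002 autosomal shared regions of 2000 bp or more, 1 was higher and 0 were lower, or 0.0998%.

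Within 100 kb of each other lay 8 pairs of members of opposite direction. Across the 321 members the log ratios of myoblasts and myocytes, as deposited, had a Pearson correlation of -0.184 and a Spearman correlation of -0.179. Over all 63011 shared regions these were -0.0189 and -0.00274. Each group had 1 list, regions are not replicates, and the members hold no regions with myoblast ratios near 1, so these values are a description.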
